A study of Drosophila melanogaster with 4 samples.

Results

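Odorant-binding proteins were followed in the heads of male fruit flies that had eaten ethosuximide. This drug against absence seizures is known to block calcium channels of the T type. The set holds 10 genes of this family, Obp56d, Obp56g, Obp57c, Obp19d, Obp28a, Obp44a, Obp83a, Obp83b, Obp99a and Obp99b. Clones were taken where the platform annotation gave a spot 1 gene and that gene was one of the 10, and were selected on having a deposited value on at least 1 of the 4 arrays. Of these genes 7 had a clone on the array, with 13 clones in all, and 6 had a value, on 10 clones. The arrays as a whole held 13824 clones, 6347 of them with a value, which named 3769 genes.

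Both conditions used unmated adult males of the Oregon-R wild type. They were 10 to 11 days old when moved to food with 3.48 mg/ml of ethosuximide, or to fresh normal food, for 3 days, in vials of 30 flies. RNA came from pools of frozen heads, so that a value averages over many animals and over all tissues of the head. Each of 4 spotted cDNA arrays, the 4 biological replicates of the study, compared a pool from drug-fed flies with a pool from flies on normal food, 1 in each dye. The drug sample carried Cy5 on arrays 1 and 2 and Cy3 on arrays 3 and 4. The question asked of the data was whether transcripts of this family differed with the drug. With 4 arrays, or fewer for some clones, precision is limited throughout.

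Odorant-binding proteins are small secreted proteins of the fluid that bathes the dendrites of chemosensory neurons. They are made by support cells of the sensory hairs, carry hydrophobic odorants and pheromones through that fluid, and are held in shape by disulphide bridges. Several members are also made outside sensory hairs, in fat body, glia or the male reproductive tract. Their names give the position of the gene on the polytene chromosome map, so that genes with the same number lie in the same region of a chromosome.

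The members were often detectable in these heads. On arrays 1 to 4, 9, 7, 5 and 5 of the 13 member clones had a value after the authors' spot filters, or 69.2%, 53.8%, 38.5% and 38.5%. Over all clones the shares were 36.9%, 22.9%, 7.96% and 5.87%. The members were chosen with these results known and partly for having a value, so these shares are a description. The other 13 genes of the family on the array had 20 clones, of which 75%, 55%, 5% and 5% had a value on arrays 1 to 4.

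**Figure D1:**
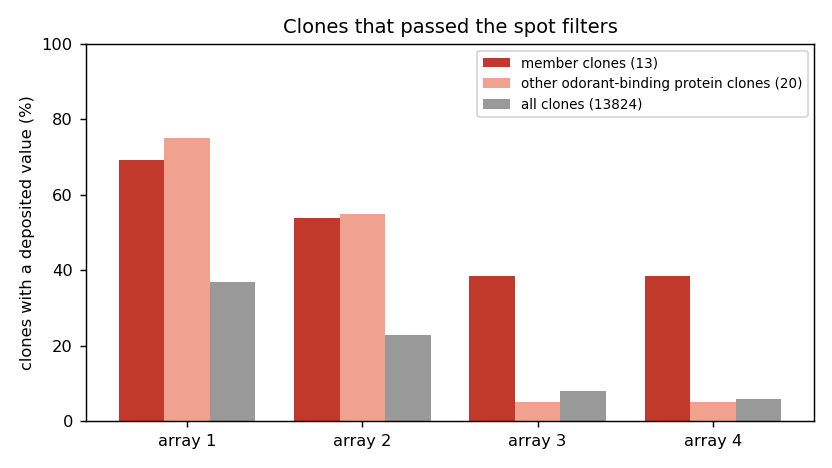
The bars give the percentage of clones with a deposited value on arrays 1 to 4, for the 13 member clones, the 20 clones of other odorant-binding proteins and all 13824 clones. The member clones lay at 38.5% on arrays 3 and 4, where all clones lay at 7.96% and 5.87%.

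Coverage differed among the members. Obp56d had 3 clones, with values on 3, 1 and 4 arrays. Obp56g had 2 clones, both with values on all 4 arrays, and Obp57c had 2, with values on 3 arrays and on 1. For Obp19d 1 of 2 clones had values, on all 4 arrays. Obp44a had 1 clone with a value on array 2 alone, and Obp99b had a value on array 1 for 1 of its 2 clones. The clone of Obp99a had no value on any array. Obp28a, Obp83a and Obp83b, which are known from the antenna, had no spot that named them as its only gene. The 4 clones with a value on just 1 array therefore lie just inside the rule, and the 3 clones with none lie just outside it.

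The deposited value of a clone is a normalized log ratio of the 2 dyes, taken here as log2. Neither the log base nor the dye in the numerator is stated. The labels list Cy5 as the first channel and Cy3 as the second, so the columns were read in that order, and turned on arrays 3 and 4 to give drug over normal food. The labels do not settle this direction. If the authors had already turned the dye-swap columns, the signs of arrays 3 and 4 would be opposite to those given below. If Cy3 had been the numerator throughout, all signs would change. Over the clones with values on at least 3 arrays, turned ratios correlated at 0.05 to 0.24 (Pearson) between arrays of opposite dye orientation. With the dye-swap columns already turned, these correlations would have the same size below 0. The columns had different medians over the tested clones, at 0.74, 0.16, 0.24 and 0.63 as deposited. Each array was therefore centred on that median, and a centred ratio of 0 stands for the typical tested clone. Over all deposited values the medians were 0.743, 0.012, 0.178 and 0.59, so the typical value of array 2 lies below 0 after centring. The centring assumes that the typical tested clone did not differ between the conditions.

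None of the 6 member clones tested, from Obp56d, Obp56g, Obp57c and Obp19d, differed between drug and normal food at an adjusted p under 0.05 in limma's one-class fit. Over all 980 clones with values on at least 3 arrays, 14 passed, or 1.43%. At an unadjusted p under 0.05 there were 4 of the 6 member clones, 2 with a positive and 2 with a negative ratio. Among all tested clones this share was 12.1%, with 6.84% above and 5.31% below 0. The 4 were both clones of Obp56d, above 0, and those of Obp57c and Obp19d, below 0. Their signs did not vary between the arrays that measured them. Such evenness was seen in 31.2% of all tested clones, with 15.4% above and 15.8% below 0. These counts hold for the centred values in this reading. Without centring, 0 of the 6 passed, 0 had an unadjusted p under 0.05 and 0 had 1 sign on all their arrays, against 0.51%, 2.65% and 13.8% of all tested clones. Under the other reading, after centring, 1 of the 6 had 1 sign on all its arrays, against 24.8%. The members were chosen with results of these arrays known, so these counts support nothing about the family. The median centred ratio was 0.0073 over the 6 clones and 0.0037 over the 980. The median of the 6 is the midpoint of the Obp56g clones, whose means were -0.21 and 0.23. The other member clones lay farther from 0, at 0.60, 0.38, -0.33 and -0.67. This median was -0.14 under the other reading, -0.27 without array 3 and 0.12 without array 2.

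**Figure D2:**
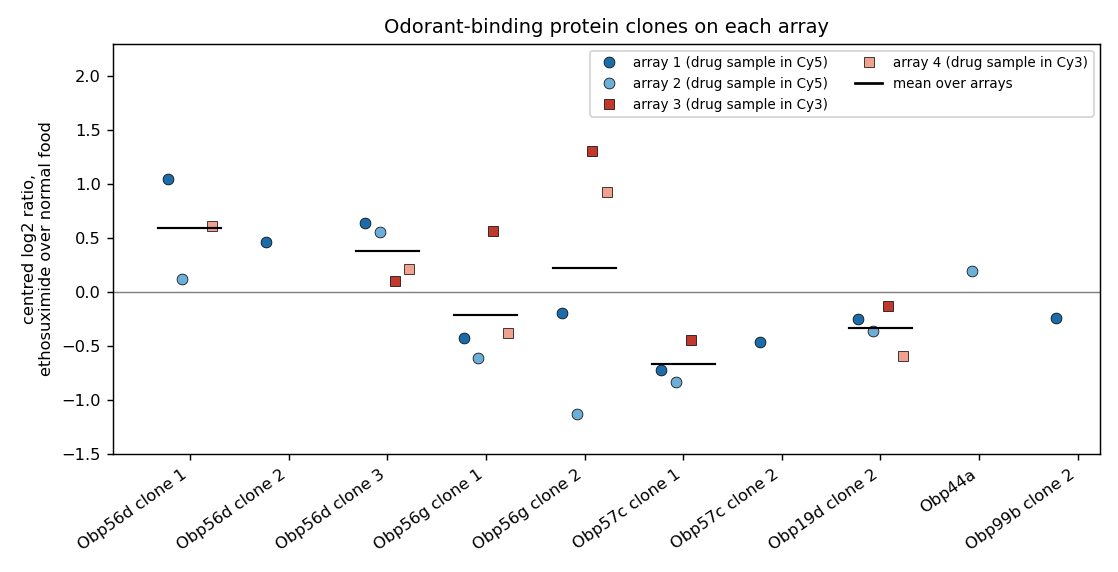
Points give the centred log2 ratio of ethosuximide over normal food on each array for the 10 member clones with a value, coloured by array, with circles where the drug sample carried Cy5 and squares where it carried Cy3. Lines give the mean of clones measured on at least 3 arrays. With the columns read as Cy5 over Cy3, all points of the Obp56d clones lie above 0 and all points of Obp57c and Obp19d below it, while those of both Obp56g clones lie on both sides. The squares change sign if the dye-swap columns were already turned.

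Obp56d is a member of the Obp56 cluster of genes. Its clone 3, with values on every array, had deposited log2 values of 1.38, 0.72, 0.13 and 0.42 on arrays 1 to 4. Turned and centred, these were drug over normal food ratios of 0.64, 0.56, 0.11 and 0.21. All 4 arrays lay above 0, and arrays 3 and 4 lay nearer to it than arrays 1 and 2. The mean was 0.38 ± 0.26 (SD, n = 4), a 1.30-fold ratio with a 95% interval from 0.08 to 0.68 on the log2 scale. In limma's fit the unadjusted p was 0.0193 and the adjusted p was 0.321, so the difference did not pass.

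Clone 1 of Obp56d had deposited values of 1.79, 0.28 and 0.02 on arrays 1, 2 and 4, and none on array 3. Its centred ratios were 1.05, 0.12 and 0.61. Array 1 stood highest and array 2 near 0. The mean was 0.60 ± 0.46 (SD, n = 3), or 1.51-fold, with a 95% interval from 0.16 to 1.03 and an adjusted p of 0.28 in limma's fit. Leaving out array 1 gave a mean of 0.37 and an adjusted p of 0.781 in limma's fit. Leaving out array 2 gave 0.83 and an adjusted p of 0.0427, each time over the 2 arrays that remained, so that its size and its call rest on single arrays. On array 4 its 2 spots, at 0.29 and -0.25 as deposited, differed by 0.54 and fell on opposite sides of 0. The third clone, numbered 2, had a value on array 1 alone, at a centred ratio of 0.47. Averaged per array over its clones, Obp56d had a mean ratio of 0.40 over 4 arrays, with an adjusted p of 0.278 in limma's fit.

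Obp57c belongs to the Obp57 group of genes, some of which are known from taste organs. Its clone 1 had deposited values of 0.02, -0.68 and 0.68 on arrays 1 to 3, and centred ratios of -0.72, -0.84 and -0.44. The 3 arrays thus lay on 1 side of 0 and close together. The mean was -0.67 ± 0.20 (SD, n = 3), or 0.63-fold, with a 95% interval from -1.01 to -0.33. Among the 6 clones this one had the lowest p, at 0.00187 unadjusted and 0.0918 adjusted in limma's fit, and it did not pass. Its second clone had a value on array 1 alone, with a centred ratio of -0.46, on the same side of 0.

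Obp19d, first described as a relative of moth pheromone-binding proteins, had deposited values of 0.49, -0.20, 0.37 and 1.23. Its centred ratios were -0.25, -0.36, -0.13 and -0.60. All 4 arrays lay below 0, with array 3 nearest to it and array 4 farthest. The mean was -0.33 ± 0.20 (SD, n = 4), or 0.79-fold, with a 95% interval from -0.62 to -0.05. It did not pass in limma's fit, with an unadjusted p of 0.0253 and an adjusted p of 0.33.

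Obp56g, which is known to be needed in the male ejaculatory bulb for the mating plug, gave the least even values. Clone 1 had deposited values of 0.32, -0.45, -0.33 and 1.01, and clone 2 had 0.54, -0.97, -1.07 and -0.29. The centred ratios of clone 1 were -0.42, -0.61, 0.57 and -0.38, with array 3 alone above 0. Those of clone 2 were -0.20, -1.13, 1.31 and 0.92, below 0 on arrays 1 and 2 and above 0 on arrays 3 and 4. Such a split by dye was seen in 18.9% of the 366 clones with values on every array. The means were -0.21 ± 0.53 and 0.23 ± 1.11 (SD, n = 4 each), with limma adjusted p of 0.673 and 0.846.

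The clones of Obp56g lay on the same side of 0 on arrays 1, 2 and 3 and on opposite sides on array 4, and their means had opposite signs. Clone 1 minus clone 2 was -0.22, 0.52, -0.74 and -1.30 on arrays 1 to 4, and this difference does not depend on the centring. The 2 spots of a clone differed by 0.002 to 0.64 in the tested member clones, with a median of 0.16, against a median of 0.12 over all tested clones. The widest gap, 0.64, was that of clone 2 on array 3. The mean of clone 1 was -0.08 without array 2 and -0.47 without array 3, where limma's adjusted p was 0.185. Without array 2 the mean of clone 2 was 0.68, with an adjusted p of 0.0427 in limma's fit, and without arrays 3 and 4 in turn it was -0.13 and -0.0072. The sign and the call of clone 2 therefore rest on single arrays. Averaged over both clones, Obp56g had a mean of 0.0073.

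Obp44a, known from glia of the brain, had a deposited value of 0.35 on array 2 and a centred ratio of 0.19. Obp99b, known from the fat body of the head in males, had 0.50 on array 1 and a centred ratio of -0.24. With 1 array each, neither difference has a replicate check.

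The result was then set against the other reading, in which all columns are already drug over normal food. After centring, the means were 0.19 and 0.22 for Obp56d clones 1 and 3, and -0.37 for Obp57c, so their signs were the same under both readings. The ratios of arrays 1 and 2 do not differ between the readings, so part of this is built in. Each of these clones had mixed signs over its arrays under the other reading. Their unadjusted p were 0.53, 0.239 and 0.183 in limma's fit. Obp19d stood at 0.028, against -0.33 under the first reading. The means of both Obp56g clones then had the same sign, at -0.31 for clone 1 and -0.89 for clone 2. Clone 2 was below 0 on all 4 arrays, as 12.7% of all tested clones were, with an unadjusted p of 0.00105 and an adjusted p of 0.344 in limma's fit. After centring, 0 of the 980 clones passed under this reading and 14 under the first. The shares with an unadjusted p under 0.05 were 8.78% and 12.1%.

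**Figure D3:**
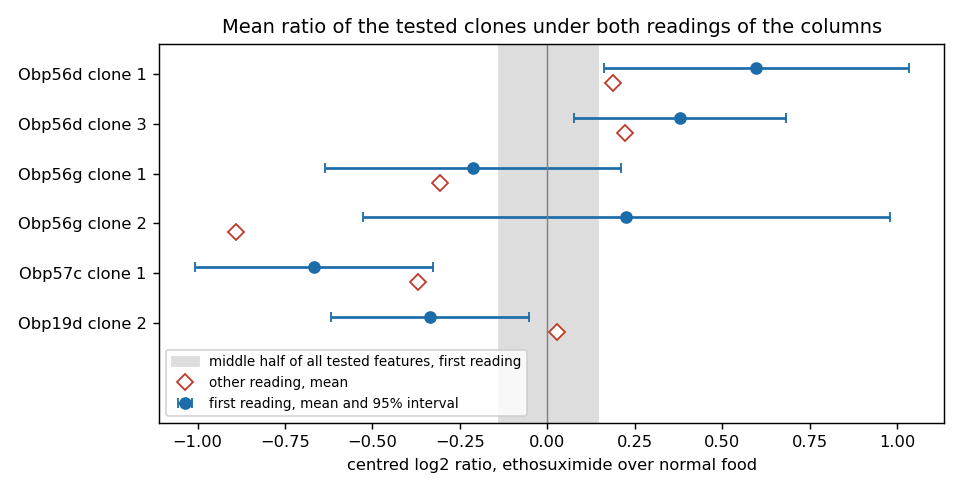
Filled points give the mean centred log2 ratio of the 6 tested member clones with limma's 95% interval, with the columns read as Cy5 over Cy3, and open diamonds give the mean if the dye-swap columns were already turned. The shaded band spans the 25th to 75th percentile of all 980 tested clones, from -0.14 to 0.14. Obp56d and Obp57c keep their side of 0 under both readings, while Obp19d and Obp56g clone 2 change theirs.

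The swapped dyes allowed a dye effect to be fitted beside the drug effect on the centred values. With this term the drug ratios were 0.60 and 0.38 for Obp56d clones 1 and 3, -0.61 for Obp57c and -0.33 for Obp19d. Their limma adjusted p were 0.182, 0.11, 0.0603 and 0.194, and none passed. With the dye term 28 of the 980 clones passed for the drug, or 2.86%. Dye effects were near 0 for Obp56d clone 1, at -0.013, and for Obp19d, at 0.028. They were 0.22 for Obp56d clone 3, -0.17 for Obp57c and -0.31 for Obp56g clone 1, none with an unadjusted p under 0.05. Obp56g clone 2 had a dye effect of -0.89, with an unadjusted p of 0.000338 and an adjusted p of 0.051 in limma's fit. For the dye, 14.1% of all tested clones reached an unadjusted p under 0.05, and 0.204% passed. If the dye-swap columns were already turned, drug and dye effects change places.

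**Figure D4:**
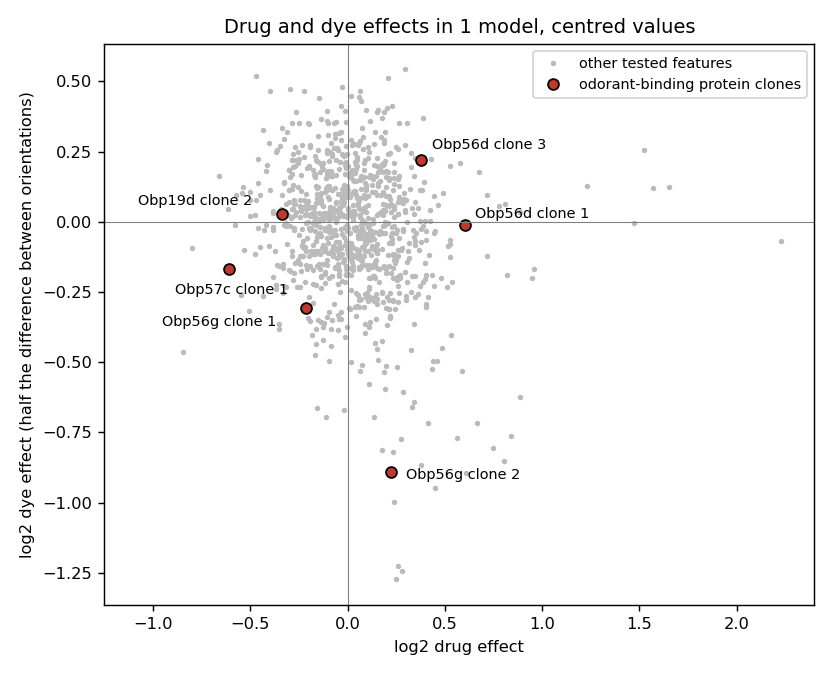
Each point is 1 of the 980 tested clones, with the log2 drug effect on the horizontal axis and the log2 dye effect on the vertical axis, both from 1 limma model on centred values. The 6 odorant-binding protein clones are labelled. Obp56g clone 2 lies at a dye effect of -0.89, and the other labelled clones lie between -0.31 and 0.22 on that axis.

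Differences between members within an array need no centring, and 15 pairs of tested clones were compared in this way, as a description with the values known. Of these pairs, 7 had 1 sign on all their shared arrays and 8 had mixed signs, among them Obp56d clone 1 minus clone 3, at 0.41, -0.44 and 0.40 on arrays 1, 2 and 4. The pairs reuse the same clones, and the count was not made for pairs of other clones, so it supports nothing about the family. The 3 pairs given next were chosen from the 7. Obp56d clone 3 minus Obp19d was 0.89, 0.92, 0.23 and 0.81 on arrays 1 to 4, above 0 on each array, with a mean of 0.71 ± 0.32 (SD, n = 4). Obp57c minus Obp56d clone 3 was -1.36, -1.40 and -0.55 on arrays 1 to 3. Obp57c minus Obp19d was -0.47, -0.48 and -0.32. Obp56d thus had the highest and Obp57c the lowest ratio of these 3 genes on each array that measured them. Under the other reading the differences on arrays 3 and 4 change sign.

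Most of the other family members were measured on arrays 1 and 2 alone, where the drug sample carried Cy5 both times. The reading of the dye-swap columns does not enter these ratios, but drug and dye cannot be told apart in them. Of 16 clones of the family with values on both arrays, 3 were above 0 on both and 7 below 0 on both after centring. Over all 2116 clones measured on both arrays, 23.7% were above and 40.1% below 0 on both. The 0 of array 2 was set by the tested clones, at 0.159 as deposited, where all its values had a median of 0.012. Small ratios below 0 on array 2, here and below, therefore need not lie below the typical clone. The 6 member clones split 2 above and 4 below.

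Genes of the Obp56 cluster lay on both sides of 0 on these arrays. In the Release 6 annotation Obp56e lies next to Obp56d, and Obp56h next to Obp56g, with 4 genes between Obp56d and Obp56g. Obp56e clone 1 had centred ratios of 0.11 and 0.19 on arrays 1 and 2, above 0 as Obp56d was but nearer to it on array 1, and its clone 2 had 0.29 on array 2 alone. The 2 clones of Obp56h had -0.41 and -0.56, and -0.44 and -0.74, below 0 as both Obp56g clones were. Over all clones measured on both arrays, 23.7% were above and 40.1% below 0 on both. The grouping of these genes by sign was noticed in the values and was not tested. Obp56h and Obp56g also lay close in spot number, at 20419 and 20429 for their clones 1 and 25037 and 25027 for their clones 2. The clones of Obp56d and Obp56e did not lie so close. The part of position on the array was not tested. Cross-hybridisation between related genes was not tested either, since the sequences of the clones were not used here.

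**Figure D5:**
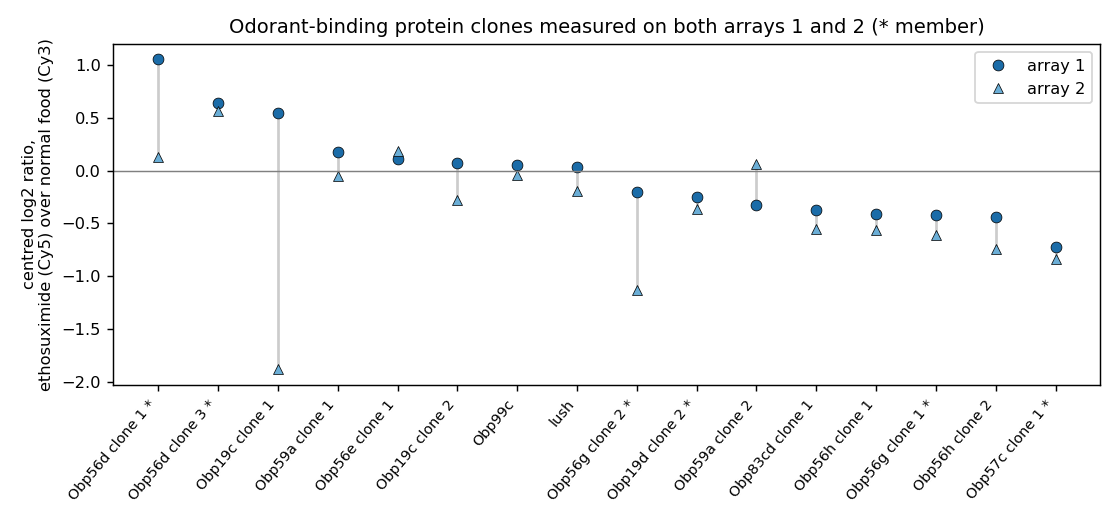
Points give the centred log2 ratio of ethosuximide, in Cy5, over normal food, in Cy3, on array 1 (circles) and array 2 (triangles) for the 16 odorant-binding protein clones measured on both, ordered by array 1, with members marked by a star. The Obp56d and Obp56e clones lie above 0 on both arrays and the Obp56g and Obp56h clones below 0 on both.

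In the Obp19 cluster the signs were less even. Next to Obp19d lies Obp19c, whose clones had centred ratios of 0.55 and -1.88, and of 0.07 and -0.28, on arrays 1 and 2. The value of -1.88 came from a single spot. Obp83cd had -0.38 and -0.55, and lush, which is needed for the response to the male pheromone cis-vaccenyl acetate, had 0.03 and -0.19. Obp99c was the only other family member on 3 arrays. Its centred ratios were 0.06, -0.04 and 0.13 on arrays 1, 2 and 4, with a mean of 0.05 ± 0.08 (SD, n = 3) and an unadjusted p of 0.733 in limma's fit.

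The clones most like the members were found by the distance between centred ratios over 4 arrays, among 183 other clones with 1 gene and values on every array. Nearest to Obp56d clone 3 were CG4716, CG2736 and CG14989, at distances of 0.10, 0.34 and 0.36, where the median distance was 0.96. For Obp19d these were ben, CG9813 and Gs2, at 0.37, 0.42 and 0.46, with a median of 0.94. Obp56g clone 1 lay nearest to CG4409, Gs2 and CG14567, at 0.56 to 0.65, with a median of 1.22. Clone 2 had no such close match, with ND-15, AdipoR and RpS15Ab clone 2 at 1.18 to 1.33 and a median of 2.05. The points are 4 arrays that share their offsets and dyes, so the likeness is a description.

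Markers of tissues of the head, and of male reproductive tissue and gut, were checked through their ratios and coverage, since no level of a transcript was used. Of 8 photoreceptor genes on the array 7 had a value, and 5 tested clones had a median centred ratio of -0.29, from -0.45 to 0.26. Of 4 glial genes 2 had a value and Gs2, tested, stood at -0.35. The single tested clone from male reproductive tissue was at 0.44, and 2 muscle clones had a median of -0.32. The 2 tested fat body clones, of 1 gene, had a median of 0.09. The tested gut clone was at 0.09 ± 1.21 (SD, n = 3), so its arrays lay far apart. None of these clones passed. An unadjusted p under 0.05 in limma's fit was found for 1 of the 5 photoreceptor clones and 1 of the 2 muscle clones. It was also found for Gs2 and for the male reproductive clone, and for 0 of the fat body and gut clones. Among all tested clones this share was 12.1%. Under the other reading the photoreceptor clones had means from 0.05 to 0.29, and the muscle clones 0.33 and 0.04. Gs2 then stood at -0.16 and the male reproductive clone at -0.06. The fat body clones were at -0.13 and -0.05, and the gut clone at -0.74. Fewer cells of a type and less RNA per cell cannot be told apart in whole heads, and the part of the markers in the members' ratios was not tested.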

How the data were processed

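Per the series' design text, the authors quantified 2-colour spotted cDNA arrays with GenePix Pro 6.0 and normalized ratios in Acuity 4.0, leaving out raw intensities under 100. Spots flagged bad, with 3% or more of their pixels saturated, with a regression R2 below 0.6 or with a signal-to-noise ratio below 3 were dropped by the authors. How the ratios were normalized in detail is not given in the sources used here.

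Deposited values, 1 column per array, were taken as log2 ratios, an assumption from their spread on both sides of 0. The 2 neighbouring spots of a clone were averaged, since 7558 of 7558 named pairs shared their gene. Symbols were updated through Entrez gene numbers in RefSeq's Release 6 table. Ratios were turned on the 2 dye-swap arrays, and each array was centred on its median over the 980 clones with values on at least 3 arrays.

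These were fitted in R 4.3.3 with lmFit and eBayes of limma 3.58.1 (one-class against 0, two-sided, Benjamini-Hochberg over all tested clones, threshold 0.05). The prior variance of the centred fit had 6.26 degrees of freedom. The fit treats the arrays as independent. Over the tested clones, ratios correlated at 0.525 between arrays 1 and 2 and at 0.42 between arrays 3 and 4. Between the 2 dye orientations they correlated at 0.05 to 0.24. A dye effect shared by arrays is not in this model, and the fit with a dye term is given above. In simulated data with the same missing arrays, the fit recovered 87 of 100 changes of 1 on the log2 scale and 100 of 100 changes of 2. It called 11 of 780 unchanged clones. Both sizes exceed the means of the tested member clones, of which -0.67 for Obp57c lay farthest from 0. The simulation therefore does not show how often differences of the members' size would pass. SDs are over arrays.

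The members, lists and tests were chosen with earlier results of these data known. All members were named, with up to 4 genes of each further list, the 3 nearest clones of each member clone on 4 arrays, and family neighbours chosen after their values were seen.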

Additional observations from a re-analysis of the deposited data

Results flagged for a closer look

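Obp56g clone 2 differed between the dye orientations, with centred drug over normal food ratios of -0.20 and -1.13 on arrays 1 and 2 and of 1.31 and 0.92 on the dye-swap arrays 3 and 4. Its dye effect was -0.89 on the log2 scale, with an unadjusted p of 0.000338 and an adjusted p of 0.051 in limma's fit, so that the difference did not pass. Of 366 clones with values on every array, 18.9% had opposite signs in the 2 orientations in this way, and 1 of the 4 member clones among them did. No array stood apart by Dixon's criterion in the 4 member clones with 4 values, centred or as deposited.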

How the results depend on the processing

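Over 16 alternatives, 0 member clones passed limma's test in 15, and 2 passed without array 2, Obp56d clone 1 and Obp56g clone 2. The count was thus 0 to 2 with 1 array left out. The count over all clones was 14 in the main analysis, 5 on the deposited values, 9 when centred on clones present on every array, 28 with a dye term, and 0 with at least 2 arrays required or with the unmoderated statistic. Under the other reading it was 0 after centring and 32 on the deposited values. With the remaining alternatives it was 13 to 19, and it was 5, 23, 7 and 11 without arrays 1 to 4. The unmoderated adjusted p of Obp57c was 0.384.

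Obp56d kept its sign, from 0.19 to 0.83 over the 15 alternatives that held clone 1 and from 0.22 to 0.66 over the 16 for clone 3. Under the other reading Obp19d turned to 0.028 after centring and 0.47 on the deposited values, Obp56g clone 2 to -0.89 and -0.45, and on the deposited values Obp57c to 0.0092 and Obp56g clone 1 to 0.14. The median of all tested clones was then 0.40, so these last values lay below it, except that of Obp19d. Averaging the clones of a gene turned Obp56g clone 1 to 0.0073. With 1 array left out, Obp56g clone 2 ranged from -0.13 to 0.68, with -0.0072 without array 4, and the other clones kept their sign, with Obp56g clone 1 from -0.47 to -0.08. The cause of these changes was not tested, beyond the turned columns and averaged clones themselves. On the deposited values limma's adjusted p was 0.994 for each of the 6 clones. No paired analysis was possible because each array already holds a drug and a normal food sample, so the ratio is the paired value. Requiring both spots changed no value of a member. The authors' signal-to-noise filter limits which members have a ratio, and the intensities behind the ratios were not used here.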

Other observations

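Receptors and other secreted proteins of chemosensory organs were thinly covered, and none was measured on 3 arrays. Of 5 genes for receptors and their partners on the array, 4 had a value. The ionotropic receptor gene Ir76a had centred ratios of 0.27 and -0.23 on arrays 1 and 2. Ir93a, whose product serves the sensing of temperature and humidity, had -1.42 on array 1 alone. Or33a, an odorant receptor gene, had -0.37 on array 1, and Ir47a had 1.08 on array 4. CheA75a, of a family of secreted proteins of chemosensory hairs, had -0.42 and -0.02 on arrays 1 and 2. With values on 1 or 2 arrays these genes were not tested. Their ratios on array 2 again stand against the higher median of the tested clones.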
